A study of Mus musculus with 6 samples.

Results

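Receptor-type protein tyrosine phosphatases were measured in microglia, the resident macrophages of the brain parenchyma, sorted from mice with 1 or with no intact copy of *Bhlhe41*, a basic helix-loop-helix transcriptional repressor. The set holds *Ptprg* and 8 further genes of the family, *Ptpra*, *Ptprc*, *Ptpre*, *Ptprj*, *Ptprm*, *Ptpro*, *Ptprs* and *Ptprz1*. Its members were all non-control array probes whose transcript accession, with the version removed, maps to any of these 9 symbols. This gave 14 of 56605 probes, and 9 of the 23462 genes named on the array. *Ptprg*, *Ptprc*, *Ptpre*, *Ptprj* and *Ptprm* had 2 probes each, and the other 4 genes had 1.

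Receptor tyrosine phosphatases cross the plasma membrane once and remove phosphate from tyrosine residues of proteins on its inner face. Their outer regions bind neighbouring cells, matrix proteoglycans or soluble ligands, and their inner regions carry the catalytic domains that oppose tyrosine kinases. In macrophages and microglia the best known of them act on kinases of the Src family, either by removing an inhibitory phosphate from the tail of the kinase or by removing the activating phosphate, and so set the threshold of immune receptor signalling.

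The 3 B41 HET samples came from *Bhlhe41* dTomato-Cre/+ mice, and the 3 B41 KO samples from *Bhlhe41* dTomato-Cre/dTomato-Cre mice, all 3 months old and on a C57BL/6 background. The allele places a cassette of a dTomato reporter, Cre recombinase and a polyadenylation signal under the *Bhlhe41* promoter, upstream of the *Bhlhe41* start codon. The paper states that it ends Bhlhe41 translation. Every sample carried at least 1 such allele and no sample lacked Cre, and no wild-type sample was compared. Each sample was sorted as live CD45 low, CD11b+ and Cx3cr1+ cells from brain cells enriched on Percoll, and the methods give 10 to 15 mice pooled per sample. RNA was labelled with Cy3 and hybridised to 1-colour Agilent mouse arrays, 1 array per sample.

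Of the 56605 probes, 39654 to 42719 were well above background on each array, and no spot was saturated. All 7 microglial markers read, among them *P2ry12* and *Tmem119*, were above background on every array, and their summed linear signal was 108724 to 120649 in B41 HET and 107503 to 110116 in B41 KO. Of these, 1 was called lower in B41 KO (*Fcrls*, log2 change −0.76, adjusted p by limma of 0.00581) and 6 were not called. Markers of other cells were measured too. Of 10 neutrophil and monocyte markers 7 were called lower in B41 KO (summed signal of the 10, 23022 to 25894 against 3503 to 3966). These were *Camp*, *Ltf*, *Ly6g*, *Ngp*, *Retnlg*, *S100a8* and *S100a9*. *Mmp8* (log2 change −0.61), *Ccr2* (−0.30) and *Vcan* (0.20) were not called. Of 8 border macrophage markers 5 were called lower (2372 to 2568 against 1605 to 1790). Of 6 endothelial markers 2 were called lower, *Ly6c1* and *Pecam1*, which gave most of the summed signal of the 6 (1154 to 1261 against 404 to 457). *Cldn5* (−0.13) and *Kdr* (−0.0093) were not called, and *Cdh5* and *Flt1* were not well above background. The 2 *Bhlhe41* probes were not lower in B41 KO (log2 changes of 0.38 and 0.33, adjusted p by limma of 0.330 and 0.203). On the probe with a change of 0.33 every B41 KO array was above every B41 HET array, by a gap of 0.048. Whether transcript was read past the cassette of the allele was not tested, so these probes do not check the labels.

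The promoters of the genes that the results turn on are shown first, because Bhlhe41 is known to repress genes through the E-box CACGTG. Each window spans 300 bases around an annotated transcript start, most of them upstream of it, was taken from RefSeq on the mouse build GRCm38.p6, and is printed along the gene's own strand from 5′ to 3′. *Ptprg* has 2 annotated windows, chr14:11553303-11553602 and chr14:12189693-12189992, both on the plus strand and on chromosome 14, and *Ptprm* has 1, chr17:67354410-67354709, on the minus strand of chromosome 17. Capitals mark CACGTG, which reads the same on both strands, and every other base is in lower case.
Ptprg, upstream start: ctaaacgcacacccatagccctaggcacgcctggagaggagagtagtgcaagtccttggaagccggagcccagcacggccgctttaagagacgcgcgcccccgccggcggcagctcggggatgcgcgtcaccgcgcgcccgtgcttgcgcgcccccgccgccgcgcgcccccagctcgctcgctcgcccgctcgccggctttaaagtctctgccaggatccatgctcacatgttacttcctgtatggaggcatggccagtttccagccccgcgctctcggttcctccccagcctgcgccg
Ptprg, downstream start: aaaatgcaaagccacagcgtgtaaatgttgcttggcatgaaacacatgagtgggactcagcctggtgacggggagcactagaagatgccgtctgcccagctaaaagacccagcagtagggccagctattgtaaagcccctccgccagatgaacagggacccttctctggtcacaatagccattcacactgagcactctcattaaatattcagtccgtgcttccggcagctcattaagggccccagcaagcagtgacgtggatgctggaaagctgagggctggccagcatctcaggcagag
Ptprm: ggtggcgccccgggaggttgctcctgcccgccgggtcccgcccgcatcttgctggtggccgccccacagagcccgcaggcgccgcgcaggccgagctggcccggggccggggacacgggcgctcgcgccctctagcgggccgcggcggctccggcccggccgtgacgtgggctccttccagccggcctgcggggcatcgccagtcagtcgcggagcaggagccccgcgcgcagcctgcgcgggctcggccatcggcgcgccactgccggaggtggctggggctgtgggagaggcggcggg

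Neither *Ptprg* window and not the *Ptprm* window held CACGTG. The upstream *Ptprg* window had a GC content of 69.0% with 36 CpG dinucleotides and the downstream window 53.7% with 7, while the *Ptprm* window had 80.7% with 43. Among the 15 windows of the 9 genes, the only match lay in a single *Ptprs* window, chr17:56476431-56476730 on the minus strand, which is printed because it held the letters 3 times.
Ptprs, upstream start: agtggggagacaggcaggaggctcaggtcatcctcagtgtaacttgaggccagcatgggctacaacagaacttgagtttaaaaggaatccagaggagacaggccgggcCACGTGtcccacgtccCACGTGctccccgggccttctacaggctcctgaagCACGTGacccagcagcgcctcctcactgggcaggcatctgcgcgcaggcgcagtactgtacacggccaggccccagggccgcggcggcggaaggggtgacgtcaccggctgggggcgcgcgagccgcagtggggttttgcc

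Over all 32851 promoter windows of the same length in the table, 7.15% held CACGTG. A match or its absence describes these letters in this window alone, since no binding of Bhlhe41 was measured in these samples.

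Signals below are log2 of the background-subtracted array signal after quantile normalisation, where a step of 1 is a doubling. Changes are B41 KO minus B41 HET, and a probe was called changed at a Benjamini-Hochberg adjusted p of at most 0.05 over all 56601 probes tested with limma and an absolute log2 change of at least 0.5. Probes differ in how strongly they hybridise, so brightness served only to choose a probe for a gene or the genes to name, and says nothing of which gene was more abundant. In sorted bulk samples, fewer cells of a type and less RNA per cell cannot be told apart.

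Of the 14 member probes, 1 was called lower in B41 KO, none was called higher and 13 were not called. The call was in *Ptprm*, the adhesion phosphatase. Over all probes tested, 5.07% were called, 1.72% higher and 3.34% lower, so 1 of 14 stood near the background. At an unadjusted p under 0.05 by limma there were 3 member probes higher, both *Ptpre* probes and 1 *Ptprg* probe, and 2 lower. On the brightest probe of each gene, 1 of the 9 genes was higher and 2 were lower at this cut. Of all 23462 genes tested, 2493 were higher and 3380 lower at it. Of the 14 changes, 5 were positive and 9 negative. The 3 arrays of each genotype did not overlap on 6 of the 14 probes, 3 with B41 KO higher and 3 with B41 KO lower. Over all probes measured, 14.5% did not overlap with B41 KO higher and 15.2% with B41 KO lower. The median change was −0.11 over the member probes and 0.015 over all probes tested.

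Read on the brightest probe, 0 of the 9 genes were called higher and 1, *Ptprm*, lower, where 5.45% of all genes were called in either direction. Changes were negative in 7 genes and positive in *Ptprg* and *Ptpre*. They ran from −0.62 to 0.29 with a median of −0.14, beside a median of 0.0067 over all genes tested.

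**Figure D1:**
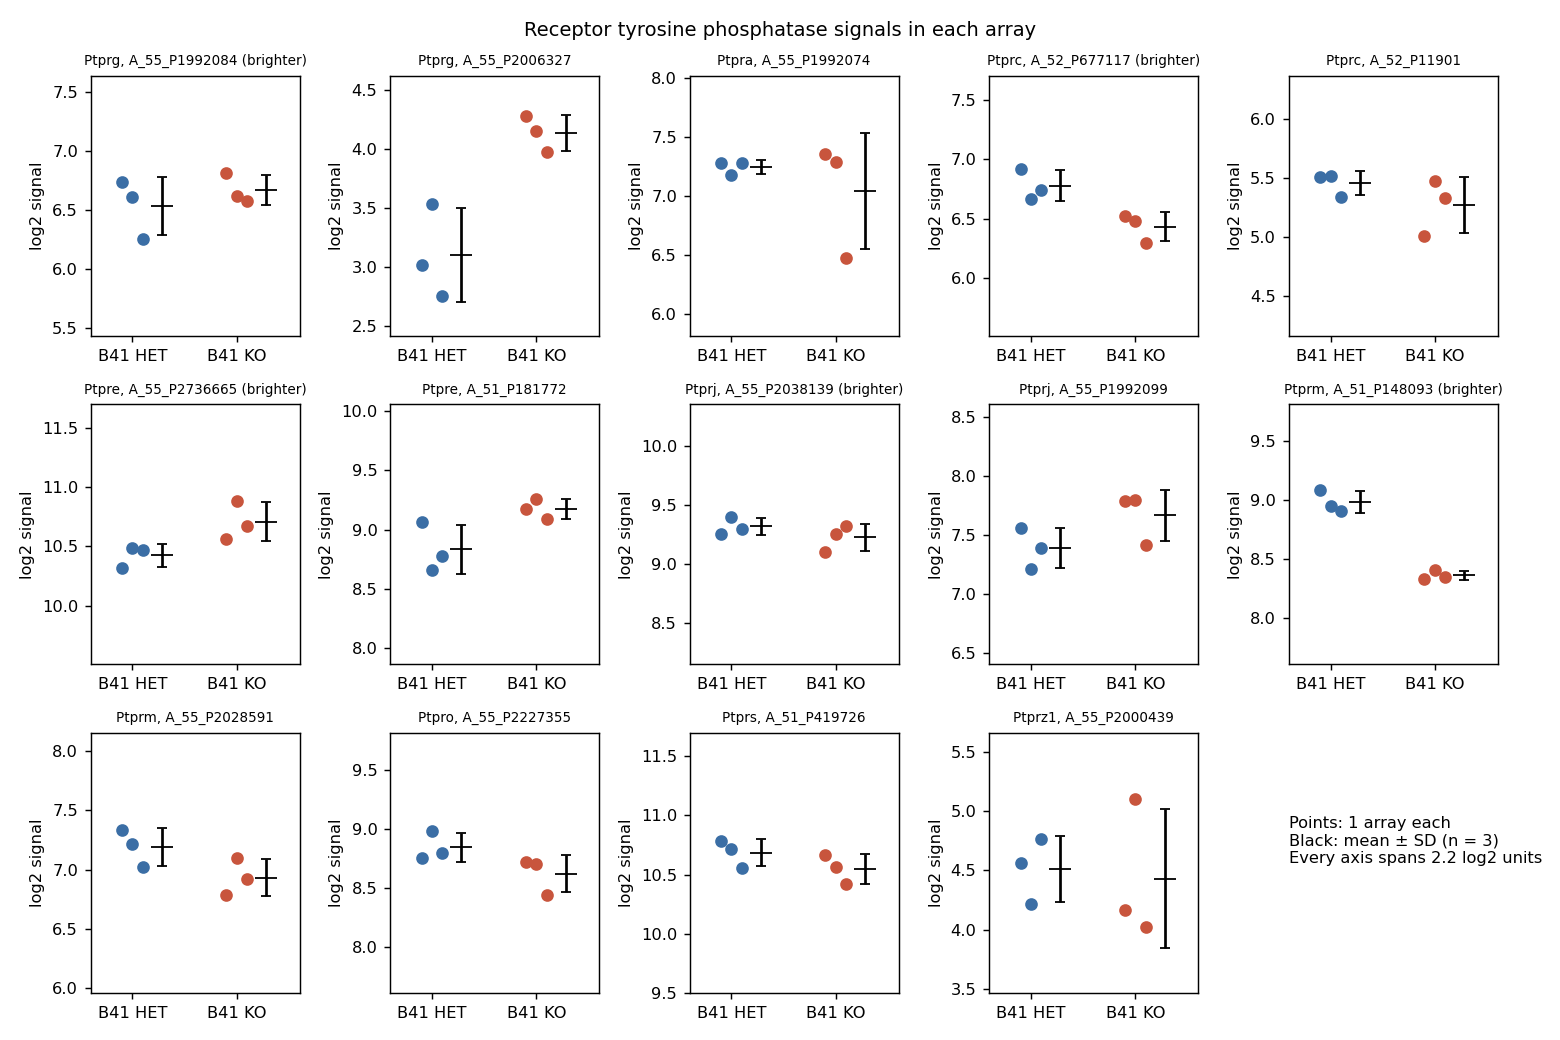
Log2 signal of each of the 14 member probes (vertical axes, each spanning the same length of log2 units) in the 3 B41 HET arrays (blue) and the 3 B41 KO arrays (red), with black bars for mean ± SD (n = 3). The dimmer *Ptprg* probe and the brighter *Ptprm* probe have the widest gaps between genotypes, and the B41 KO array that lies apart is replicate 3 for *Ptpra* and replicate 2 for *Ptprz1*.

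*Ptprg* encodes a phosphatase with a carbonic anhydrase-like outer domain that binds contactins, and the array reads it with 2 probes designed on the same transcript, NM_008981. On the brighter probe, A_55_P1992084, the log2 signals of replicates 1 to 3 were 6.73, 6.61 and 6.26 in B41 HET and 6.81, 6.62 and 6.57 in B41 KO. The genotypes overlapped, with only B41 HET replicate 3 below all the others. The means were 6.53 ± 0.25 and 6.67 ± 0.13 (SD, n = 3), and the change of 0.14 (SE 0.15, 95% interval −0.23 to 0.50) was not called by limma (adjusted p = 0.649). Without B41 HET replicate 3 it was −0.0013.

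The dimmer *Ptprg* probe, A_55_P2006327, gave log2 signals of 3.02, 3.54 and 2.75 in B41 HET and 4.28, 4.15 and 3.97 in B41 KO. Every B41 KO array was above every B41 HET array, with a gap of 0.43 between the nearest arrays. The means were 3.10 ± 0.40 and 4.13 ± 0.16 (SD, n = 3), and the change of 1.03 (SE 0.22, 95% interval 0.50 to 1.56), a 2.04-fold difference, narrowly missed the threshold (adjusted p by limma of 0.0509). An exact two-sided permutation test over the 6 arrays gave p = 0.1, the smallest that 3 arrays against 3 allow.

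This probe lay close to the floor of the arrays. It was well above background on 2 of the 3 B41 HET arrays, not on replicate 3, and on all 3 B41 KO arrays. Its background-subtracted linear signals were 8.31, 12.8 and 6.43 in B41 HET and 17.8, 18.5 and 14.8 in B41 KO. The same spots had median signals of 31, 35 and 32 in B41 HET and 43, 40 and 38.5 in B41 KO before subtraction, over local backgrounds of 18 to 20. The brighter probe had background-subtracted signals of 74.1 to 117 in B41 HET and 87.1 to 100 in B41 KO.

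The call on the dimmer *Ptprg* probe turned on the processing. It was made in 5 of 16 alternatives, which included shifting each array to its 75th percentile (log2 change 1.17, adjusted p by limma of 0.0380), the authors' processed values (1.05, adjusted p of 0.0456) and testing only probes above background on at least 3 arrays (1.03, adjusted p of 0.0204). With a normexp background correction and an offset of 50, which raises dim signals towards a common floor, the change was 0.18 and below the fold threshold, although its adjusted p by limma was 0.0479. Leaving out B41 HET replicate 2, the highest of its group, gave 1.25 and a call (adjusted p by limma of 0.0442), and the other 5 leave-outs gave none.

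The genotype difference was not the same on both *Ptprg* probes in the point estimates. The dimmer probe minus the brighter was −3.43 ± 0.33 in B41 HET and −2.53 ± 0.066 in B41 KO (SD, n = 3), and the arrays of the genotypes did not overlap in this difference. The shift of 0.90 had an exact two-sided permutation p of 0.1, the smallest possible, and 0.25 after Benjamini-Hochberg adjustment over the 5 genes with a pair of probes. With normexp it was 0.077. Averaged over both probes, *Ptprg* changed by 0.58 (SE 0.16) and was not called (adjusted p by limma of 0.0976).

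Over 17198 genes above background on all 6 arrays, the profiles nearest to the brighter *Ptprg* probe, by root mean square difference of centred log2 signals over the 6 arrays, were those of *Cep78* (0.0433), *Gm14625* (0.0435) and *Tmem150a* (0.0448). Nearest to the dimmer probe were *Gm23952* (0.0925), *Gorasp1* (0.155) and *Gm5862* (0.169). These last 3 were also higher in B41 KO on every array, with log2 changes of 0.90, 0.89 and 0.82, and *Gorasp1* and *Gm5862* were called by limma (adjusted p of 0.0246 and 0.0479) while *Gm23952* was not (0.0538). The likeness is a description over 6 arrays that hold only 2 genotypes.

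*Ptprz1*, the other member with a carbonic anhydrase-like outer domain, binds pleiotrophin and contactins and is known from astrocytes and oligodendrocyte precursors. Its probe gave log2 signals of 4.57, 4.21 and 4.77 in B41 HET and 4.17, 5.10 and 4.03 in B41 KO. Replicate 2 of B41 KO was the highest of all arrays and the other B41 KO arrays the lowest, so that the genotypes overlapped. The change of −0.084 (SE 0.32, 95% interval −0.88 to 0.71) was not called by limma (adjusted p = 0.912), and it was positive under the 75th percentile shift (0.041) and with normexp (0.040). None of 6 astrocyte markers was called (summed signal 1793 to 1879 in B41 HET and 1996 to 2213 in B41 KO).

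*Ptprm* encodes a phosphatase whose outer domains bind the same protein on a neighbouring cell, and it is known from endothelial junctions. On its brighter probe, A_51_P148093, the log2 signals were 9.08, 8.95 and 8.91 in B41 HET and 8.33, 8.40 and 8.34 in B41 KO. All 3 B41 KO arrays lay below all 3 B41 HET arrays, with a gap of 0.50, and the arrays within a genotype lay close together. The means were 8.98 ± 0.091 and 8.36 ± 0.039 (SD, n = 3), and the level fell by 0.62 on the log2 scale (SE 0.078, 95% interval −0.81 to −0.43), to 0.651 of that in B41 HET (adjusted p by limma of 0.0145). The exact two-sided permutation test gave p = 0.1, the smallest possible.

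On the dimmer *Ptprm* probe, A_55_P2028591, the log2 signals were 7.33, 7.22 and 7.02 in B41 HET and 6.78, 7.10 and 6.92 in B41 KO. The genotypes overlapped, since B41 KO replicate 2 lay above B41 HET replicate 3. The change of −0.26 (SE 0.12, 95% interval −0.57 to 0.050) had the same direction and was not called by limma (adjusted p = 0.292). The shift between the *Ptprm* probes, 0.36, again did not overlap between genotypes (exact two-sided permutation p = 0.1, 0.25 adjusted over the 5 genes).

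The size of the *Ptprm* fall varied little, from −0.65 to −0.44 over 18 alternatives, but its call stood in 9 of them. It was lost when any array but B41 HET replicate 3 was left out (−0.64 to −0.57, adjusted p by limma from 0.0510 to 0.0663), and when both probes were averaged (−0.44, adjusted p of 0.0537). The slide held replicates 1 to 3 of B41 HET and replicate 1 of B41 KO in its first row and the other 2 B41 KO arrays in the other row. With row as a block, or within row 1 alone, the change was −0.65 with no call. Both settings give the same estimate, B41 KO replicate 1 against the B41 HET arrays, and that lone B41 KO array was taken to vary like the rest. Of 6 endothelial markers, *Ly6c1* (−1.79) and *Pecam1* (−1.68) were lower in B41 KO, *Cldn5* (−0.13) and *Kdr* (−0.0093) were not called, and *Cdh5* and *Flt1* were not well above background. The part of endothelial or border macrophage RNA in the *Ptprm* result was not tested.

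**Figure D2:**
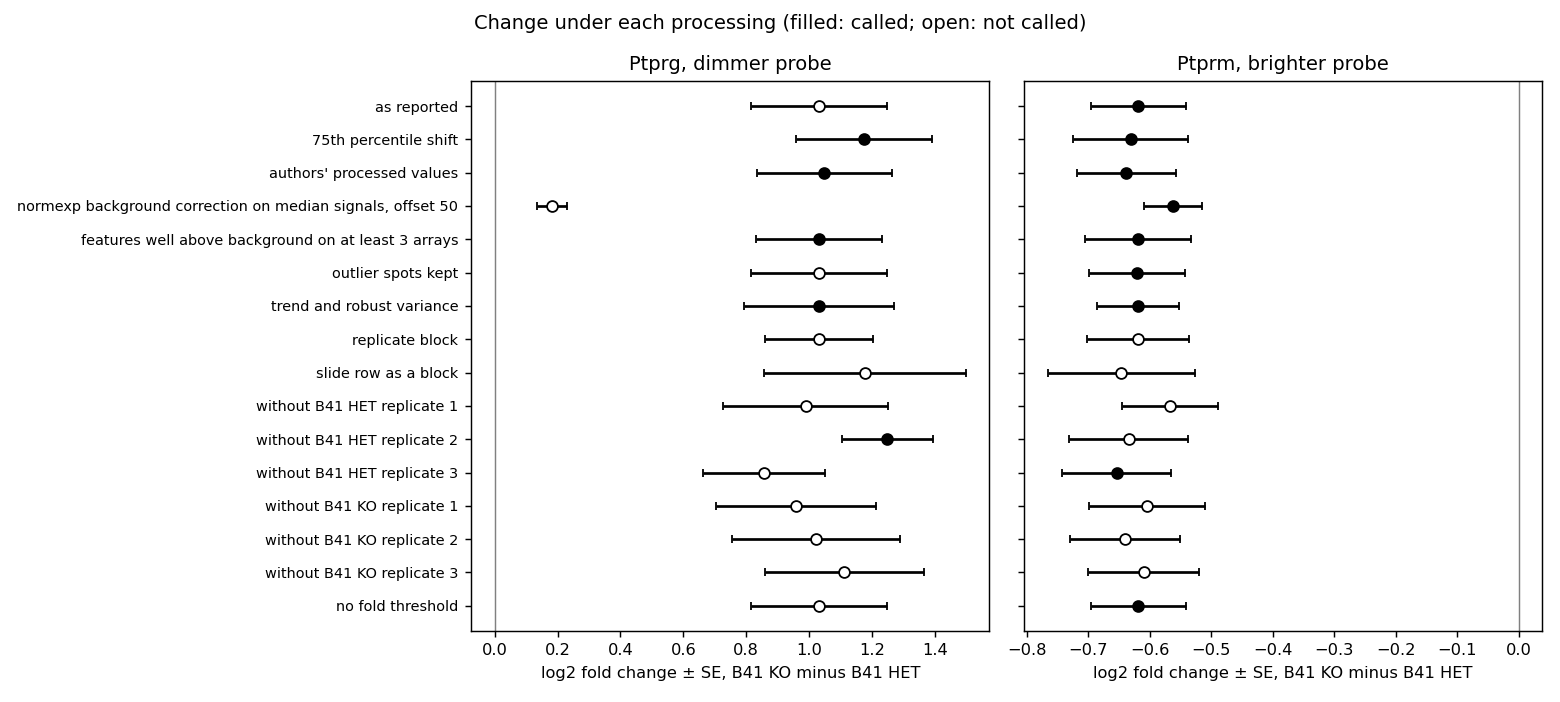
Log2 fold change ± SE, B41 KO minus B41 HET, of the dimmer *Ptprg* probe (left) and the brighter *Ptprm* probe (right) under each processing alternative that reads this single probe on arrays of both slide rows, with filled points where limma made a call and open points where it did not. *Ptprg* stays above 0 throughout but drops to 0.18 with normexp, and *Ptprm* stays between −0.65 and −0.56 while its call comes and goes.

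Among the members that act on Src-family kinases, *Ptprc* encodes CD45, the leukocyte phosphatase that removes the inhibitory tail phosphate of these kinases. CD45 protein was part of the sorting gate, so cells had been chosen for a low surface level in both genotypes. The brighter *Ptprc* probe, A_52_P677117, gave log2 signals of 6.92, 6.67 and 6.74 in B41 HET and 6.53, 6.48 and 6.29 in B41 KO. All B41 KO arrays were lower, with a gap of 0.14 to the nearest B41 HET array, and the change of −0.34 (SE 0.11, 95% interval −0.61 to −0.082) was not called by limma (adjusted p = 0.125). On A_52_P11901 the signals overlapped, at 5.51, 5.52 and 5.34 against 5.01, 5.47 and 5.33, with a change of −0.19 (adjusted p by limma of 0.50). Of 10 neutrophil and monocyte markers, of cells that carry CD45, 7 were called lower in B41 KO, with a median change of −2.35 over the 10. *Ccr2*, *Mmp8* and *Vcan* were not called. The part of these cells in the *Ptprc* values was not tested.

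*Ptpra* encodes a widely expressed phosphatase that also activates Src by removing the tail phosphate. Its probe gave log2 signals of 7.28, 7.18 and 7.28 in B41 HET and 7.35, 7.29 and 6.48 in B41 KO. Replicates 1 and 2 of B41 KO were the highest of all arrays and replicate 3 the lowest, so the change of −0.20 (SE 0.24, 95% interval −0.81 to 0.40, adjusted p by limma of 0.684) rested on that array. Without it the change was 0.077.

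*Ptpre* encodes a close relative of *Ptpra* that is made in a membrane and a cytosolic form, and it is known from myeloid cells and osteoclasts. Both of its probes were higher in every B41 KO array. On A_55_P2736665 the log2 signals were 10.32, 10.49 and 10.47 in B41 HET and 10.56, 10.89 and 10.68 in B41 KO, a change of 0.29 (SE 0.11, 95% interval 0.012 to 0.56). On A_51_P181772 they were 9.06, 8.66 and 8.78 against 9.18, 9.26 and 9.09, a change of 0.34 (SE 0.12, 95% interval 0.037 to 0.65). The gaps between genotypes were narrow, 0.079 and 0.030, and neither probe was called by limma (adjusted p of 0.200 and 0.176). The mean of the 2 probes, 0.31, was not called either (adjusted p by limma of 0.0898). With slide row as a block, where only B41 KO replicate 1 was set against B41 HET, the changes were 0.14 and 0.35.

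*Ptprj* encodes CD148, which overlaps with CD45 in acting on Src-family kinases of macrophages. Its probes were designed on different transcripts and differed in sign. On A_55_P2038139 (NM_001135657) the log2 signals were 9.26, 9.40 and 9.30 in B41 HET and 9.10, 9.25 and 9.33 in B41 KO, with overlap and a change of −0.091 (SE 0.090). On A_55_P1992099 (NM_008982) they were 7.56, 7.22 and 7.39 against 7.79, 7.80 and 7.42, with overlap and a change of 0.28 (SE 0.15). Neither was called by limma (adjusted p of 0.617 and 0.331), and the shift between the probes, 0.37, had an exact two-sided permutation p of 0.3.

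*Ptpro* encodes a phosphatase known from kidney podocytes, with a shorter form in macrophages and osteoclasts. Its log2 signals were 8.75, 8.98 and 8.80 in B41 HET and 8.72, 8.70 and 8.44 in B41 KO. All B41 KO arrays were lower, by a gap of only 0.034, and the change of −0.22 (SE 0.11, 95% interval −0.51 to 0.058) was not called by limma (adjusted p = 0.317).

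*Ptprs* encodes a receptor for heparan and chondroitin sulfate proteoglycans that is best known from axons. It gave log2 signals of 10.78, 10.71 and 10.56 in B41 HET and 10.67, 10.56 and 10.42 in B41 KO. The genotypes overlapped, and the change of −0.14 (SE 0.10, 95% interval −0.39 to 0.12) was not called by limma (adjusted p = 0.506). The window that holds CACGTG 3 times, printed above, thus belongs to a gene without a called change.

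**Figure D3:**
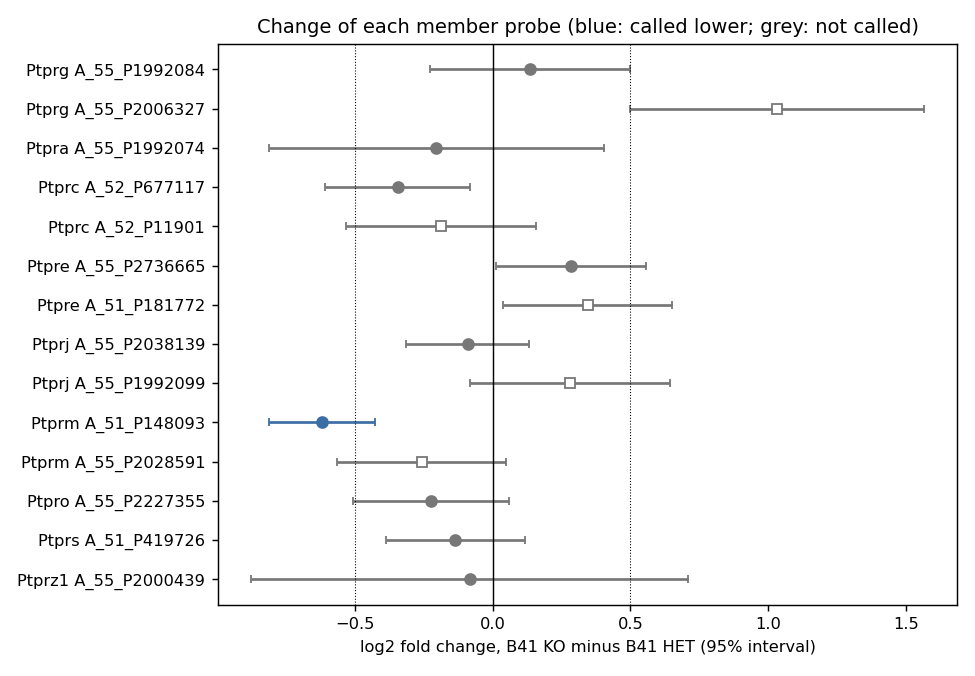
Log2 fold change of each member probe, B41 KO minus B41 HET (horizontal axis), with its 95% interval, where circles are the brightest probe of a gene, squares its other probe, blue a call of lower and grey no call. Dotted lines mark the fold threshold of 0.5, and the interval of the dimmer *Ptprg* probe begins at it.

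Other genes of tyrosine phosphorylation were read on the brightest probe of each gene. Of all 23462 genes read in this way, 339 were called higher and 940 lower, the background for the counts of each list below. Of the 12 other receptor tyrosine phosphatases, 11 had a probe. None was called by limma, 1 was higher and 0 were lower at an unadjusted p under 0.05, and the changes ran from −0.38 to 0.77 with a median of 0.035. Only 5 of the 11 were above background on all arrays and 3 were above it on none, where the members were above it on all 6 in every gene on the brightest probe. *Ptprn2* and *Ptprn*, which are found in dense-core vesicles of secretory cells, changed by 0.035 and 0.27 (adjusted p by limma of 0.932 and 0.373).

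Of 17 non-receptor phosphatases, 1 was called higher, 1 lower and 15 were not, with a median of 0.0026. *Ptpn22*, a lymphoid and myeloid phosphatase that works with Csk to restrain Src-family kinases, rose by 0.90 (4.99 ± 0.19 to 5.89 ± 0.24, SD, n = 3, adjusted p by limma of 0.0348). *Ptpn7*, a leukocyte phosphatase of mitogen-activated kinases, fell by 0.84 (6.08 ± 0.15 to 5.24 ± 0.097, SD, n = 3, adjusted p by limma of 0.0141). *Ptpn6*, which encodes SHP-1 of inhibitory immune receptors, changed by −0.13 (adjusted p by limma of 0.289), and *Ptpn1*, which encodes PTP1B of the endoplasmic reticulum, by −0.38 (0.0516), while a second *Ptpn1* probe fell by 0.51 and was called (0.0492). The other *Ptpn7* probes fell by 0.80 (0.0468, called) and had a change of −1.14 (0.0659, not called). *Ptpn12* and *Ptpn21* are named after their values were seen. A second *Ptpn12* probe was called (−0.70, adjusted p by limma of 0.0492) where the brightest was not (−0.24, 0.0958), and a second *Ptpn21* probe was called higher (0.52, 0.0433) where the brightest went the other way (−0.43, 0.0398, under the fold threshold). On the brightest probe, no gene of the list was called with slide row as a block, with the replicate block or with normexp, none was called higher in 5 of 6 leave-outs and none lower in 4 of 6.

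Among 15 binding partners of the members, 0 were called higher, 1 lower and 14 not, with a median of 0.0071. *Ncan*, a chondroitin sulfate proteoglycan of the brain matrix that binds Ptprz1, fell by 0.74 (adjusted p by limma of 0.0424). No partner was called lower with either block, under the 75th percentile shift or in 5 of 6 leave-outs. The 3 probes of *Mdk*, which encodes midkine, a ligand of Ptprz1, differed in sign, the brightest at −0.49 (adjusted p by limma of 0.129) and the others at 0.34 (0.0730) and 0.56 (0.0321). *Lgals1*, a galectin that binds CD45 sugars, changed by 0.061 (0.829).

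Of the 8 Src-family kinases and *Csk*, which are substrates or partners of the members, 3 were called lower and 6 of the 9 were not called, with a median of −0.035. *Src* fell by 0.69 (10.62 ± 0.16 to 9.93 ± 0.051), *Fyn* fell by 0.56 (4.65 ± 0.14 to 4.09 ± 0.042) and *Fgr* fell by 0.52 (9.24 ± 0.057 to 8.72 ± 0.17; SD, n = 3; adjusted p by limma of 0.0207, 0.0296 and 0.0462). A second *Src* probe changed by 0.085 and was not called (adjusted p by limma of 0.755), and a second *Fgr* probe fell by 0.74 (0.0427). The number of these kinases called lower was 0 with either block and in 4 of 6 leave-outs, and 1 with normexp or the 75th percentile shift. *Csk*, which adds the inhibitory tail phosphate, changed by −0.13 (0.438) and *Lyn*, a main Src-family kinase of myeloid cells, by −0.035 (0.821). The part of RNA from other cells in the changes of these lists was not tested.

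**Figure D4:**
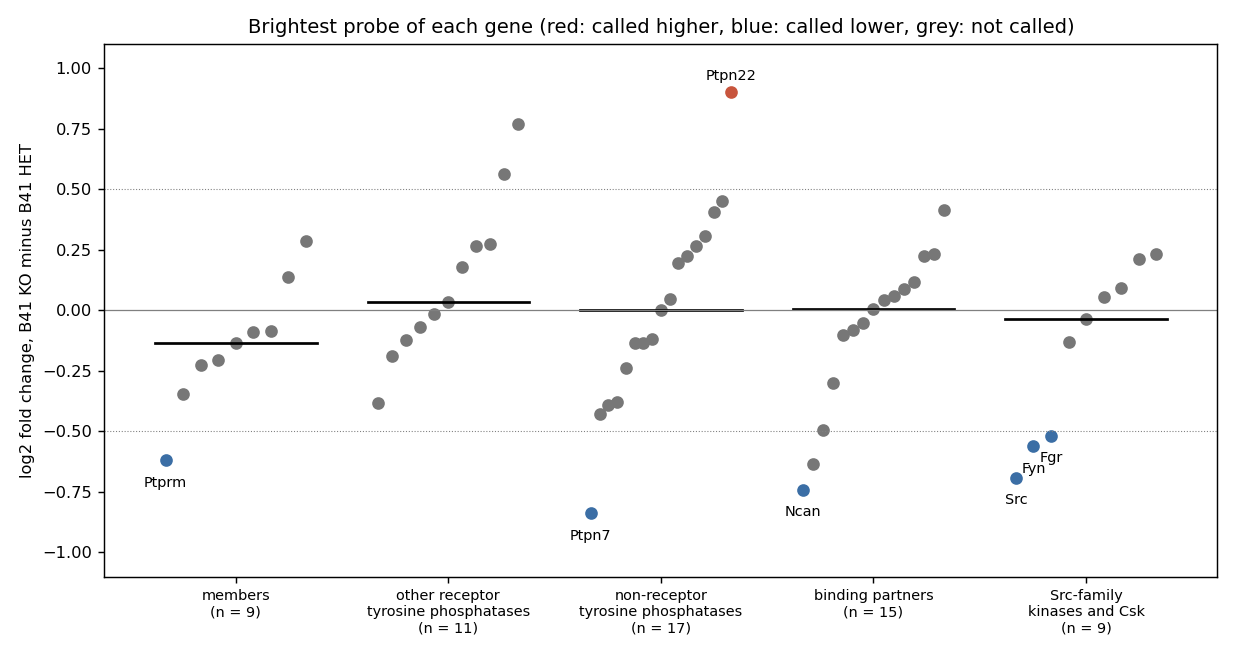
Log2 fold change, B41 KO minus B41 HET (vertical axis), of the brightest probe of each gene in the member set and in 4 related gene lists, with a black bar at each median and dotted lines at the fold threshold of 0.5. The called genes are named, and the medians lie between −0.14 and 0.035.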

How the data were processed

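Total RNA of sorted microglia was measured on 6 1-colour Agilent arrays. The deposited files hold spot intensity values from Agilent Feature Extraction 11.5.1.1 (background-subtracted processed signal, median signal and local background), and the authors' value table holds a processed log2 value per probe (column median 5.10) with the same quantiles in every column, and it ranked probes as the scanner files did. The methods name quantile normalisation and limma, which were followed. Control spots and outlier spots were left out, log2 processed signals were quantile normalised, spots of a probe were averaged, and limma 3.58.1 in R 4.3.3 compared genotypes, with Benjamini-Hochberg adjustment over all probes and calls at adjusted p of at most 0.05 and an absolute log2 change of at least 0.5. Scripts were tested on simulated data. Of 56605 probes, 33767 (59.7%) were given a gene through RefSeq accessions.

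The members and lists were chosen with earlier results of these data known. Named are all members, the called genes and the 2 brightest genes of each list, and the 3 genes most like each *Ptprg* probe; other genes are named where said. No source used here ties a replicate number to a litter or day. The number of arrays limits the precision. Proteins and probe sequences were not analysed here. A further microglial marker is not reported here. Alternatives covered scaling, background, dim and outlier spots, variance model, blocks, left-out arrays and the choice of probe.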

Additional observations from a re-analysis of the deposited data

How the results depend on the processing

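Under the 75th percentile shift of the arrays, all probes had a median change of 0.13 rather than 0.015, and the share of calls that were higher was 45.8% rather than 34.0%. Of the member probes, 1 (dimmer *Ptprg*) was called higher under that shift (1.17), with the authors' values (1.05), with the filter on dim probes (1.03) and with trend and robust variance (1.03), and 0 to 1 with an array left out. The number called lower was 0 with the replicate block, the row block and row 1 alone (chosen after seeing the data), for the genes also with the mean over probes, and 0 to 1 with an array left out. Left-out arrays gave 0.86 to 1.25 for the dimmer *Ptprg* probe and −0.0013 to 0.24 for the brighter, and normexp gave 0.077 for the shift between the *Ptprg* probes.

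The correlations of same-numbered deviations were 0.028, 0.014 and 0.048 for replicates 1 to 3. Only for replicate 3 was this above both of its highest correlations with another number, −0.014 and 0.0013. Correlations this small, over 3 arrays of each genotype, cannot tell whether replicate numbers pair the samples. With the replicate block the adjusted p by limma was 0.0874 for *Ptprm* (−0.62) and 0.0996 for the dimmer *Ptprg* probe (1.03), and 42 probes in all were called rather than 2867. The row block called 444, normexp 1500, no fold threshold 3811, row 1 alone 0 and left-out arrays 792 to 1525.

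Src-family kinases called lower numbered 1 under the 75th percentile shift and normexp, 0 under both blocks and row 1 alone, and 0 to 2 with an array left out. Binding partners called lower numbered 0 under the shift, both blocks and row 1 alone, 2 with the dim filter and with trend and robust variance, and 0 to 1 with an array left out, and 1 was higher (*Mdk*) on the probe of lowest p. Non-receptor phosphatases called higher or lower numbered 0 each under normexp, both blocks and row 1 alone, and 0 to 1 with an array left out, and those lower numbered 2 with no fold threshold and 3 on the probe of lowest p, where 1 other receptor phosphatase (*Ptprt*, named after its value was seen) was called, on a probe not well above background on any array.

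The sign turned for *Ptpra* (0.11 in the row block and row 1 alone, −0.36 to 0.077 with an array left out). Both row settings set only B41 KO replicate 1 against B41 HET and give the same estimate. The sign also turned for *Ptprj* (0.094 as the mean over probes, 0.28 on the probe of lowest p) and for *Ptprz1* (0.041 under the shift, 0.040 with normexp, −0.42 to 0.12 with an array left out). The causes were not tested. Beyond these and the *Ptprg* and *Ptprm* values above and in the report, no member probe changed sign or call. The number of arrays limits the precision, and signals near background, as for the dimmer *Ptprg* probe, depend on the background correction.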
